A study of Homo sapiens with 9 samples.

Results

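TRAIL, encoded by TNFSF10, is a death ligand of the tumour necrosis factor family, and its signalling was followed here through 10 genes in HepG2 cells given GC-1, T3 or vehicle. All probe sets annotated to exactly 1 symbol were taken when that symbol was TNFSF10, TNFRSF10B, TNFRSF10C, TNFRSF10D, TNFRSF11B, FADD, CASP8, CASP10, CFLAR or BID. This gave 10 of 11963 genes and 31 of the 22215 probe sets measured, and 2 more that name TNFRSF10C together with another gene were left out. The symbols were listed with results of these data known, in which TNFSF10 stood high with both ligands. The differences of TNFSF10 from vehicle are therefore a description, with no test. HepG2 is an established human line from a liver tumour. Cultures in medium with serum depleted of thyroid hormone were kept for 24 h with 10 nM GC-1, 10 nM T3 or vehicle (3 arrays each). T3 is the active thyroid hormone, and GC-1 (sobetirome) is a synthetic thyroid hormone receptor ligand with a preference for the beta receptor, in which methyl and isopropyl groups take the place of the iodines of T3. The study asks whether both ligands regulate genes in the same pattern. In whole HepG2 cultures, fewer cells that express a gene and less RNA per cell cannot be told apart.

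TRAIL sits on the cell surface or is shed, and it gathers its receptors into clusters. TNFRSF10B carries a cytoplasmic death domain that recruits the adaptor FADD, which in turn recruits the initiator caspases CASP8 and CASP10. TNFRSF10C, which lacks a death domain, TNFRSF10D, whose death domain is truncated, and the secreted TNFRSF11B (osteoprotegerin) bind TRAIL without passing on the death signal, and CFLAR (FLIP) blocks caspase activation at the receptor. CASP8 also cleaves BID, which carries the signal to mitochondria, a step on which hepatocytes are known to depend in death receptor killing.

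TNFSF10 and FADD each have 1 promoter window among the RefSeq sequences used here (GRCh38.p14). The 250 bases before their start sites are shown, 5′ to 3′ on the coding strand, because TNFSF10 is the member whose level differed most and FADD is the adaptor at which its receptors converge. The TNFSF10 stretch is chr3:172523431-172523680 on the minus strand and the FADD stretch chr11:70203046-70203295 on the plus strand. Capitals mark matches, on either strand, to the motifs searched.
TNFSF10: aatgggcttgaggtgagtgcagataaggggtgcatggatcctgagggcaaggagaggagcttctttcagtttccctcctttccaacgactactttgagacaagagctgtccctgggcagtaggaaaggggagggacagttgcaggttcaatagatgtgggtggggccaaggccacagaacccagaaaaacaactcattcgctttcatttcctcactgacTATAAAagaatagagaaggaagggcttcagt
FADD: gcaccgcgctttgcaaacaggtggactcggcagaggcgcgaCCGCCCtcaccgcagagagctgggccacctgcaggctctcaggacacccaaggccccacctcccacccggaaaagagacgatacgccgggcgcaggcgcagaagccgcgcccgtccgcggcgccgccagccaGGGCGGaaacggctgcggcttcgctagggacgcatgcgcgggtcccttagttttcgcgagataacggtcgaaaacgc
One motif was AGGTCA, the half-site of nuclear receptors, alone or as a pair in the same direction with 4 bases between. The GC box was searched as GGGCGG, and the forkhead site as GTAAACA. The TATA box, TATAAA, was added after the sequence had been read. The matches shown do not overlap one another. The TNFSF10 window of 300 bases, which runs 50 bases past the start, held 1 match, TATAAA beginning 31 bases before the start. The FADD window held 2 GC boxes, at 209 and 77 bases before the start. Of all 35116 windows of that length, 11.5% held TATAAA, 45% a GC box, 13.8% AGGTCA and 3.42% GTAAACA, while 0.0199% held the pair. The upstream stretch of TNFSF10 was 49.6% G and C and that of FADD 68.8%, against a median of 58% over all windows. Of the other members with windows, BID had a GC box in 4 of 5 windows, which partly overlap, CFLAR in 2 of 4 and CASP8 in 1 of 3. AGGTCA occurred in 1 CFLAR window, and no member window held GTAAACA or the pair. These matches describe letters and not binding.

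The deposited values are log2 signals, so a difference of 1 is a doubling, and levels of different probe sets cannot be set against each other. Array medians lay between 7.02 and 7.06. The interquartile range was 2.99 and 2.97 log2 units on T3 replicates 1 and 2, against 2.83 to 2.88 on the other 7 arrays, so results were also computed without those T3 arrays. Nothing in the labels states that the 3 arrays of a group came from separate cultures, so the p-values rest on the spread between these arrays alone, and that spread may be technical. Precision is limited by there being 3 arrays a group. Hepatocyte markers such as albumin and apolipoproteins, averaged 13.6 to 13.8 over 9 measured genes on every array.

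TNFSF10 stood well above vehicle with both ligands on all 3 of its probe sets. On probe set 202688_at, which had the highest mean of the 3, the log2 signal was 7.95, 7.90 and 8.10 in GC-1 cells, 8.12, 8.13 and 8.21 in T3 cells, and 6.64, 6.62 and 6.70 in vehicle cells. Every ligand array lay more than a full log2 unit above every vehicle array, and the 3 T3 arrays also lay above the 3 GC-1 arrays. The mean was 7.98 ± 0.10 with GC-1, 8.15 ± 0.05 with T3 and 6.65 ± 0.04 with vehicle (SD, n = 3 each). That is a 2.51-fold higher signal with GC-1 (log2 1.33 ± 0.06 SE) and a 2.83-fold higher signal with T3 (log2 1.50 ± 0.06 SE). Both comparisons share the 3 vehicle arrays.

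The other TNFSF10 probe sets gave the same order of groups. On 202687_s_at the signal was 7.52, 7.63 and 7.62 with GC-1, 7.97, 7.86 and 7.81 with T3, and 6.36, 6.25 and 6.40 with vehicle. This set had the largest distance between the ligands, with differences from vehicle of 1.25 ± 0.06 for GC-1 and 1.54 ± 0.06 for T3. On 214329_x_at, a type of probe set that can bind several transcripts, the signal was 7.89, 7.76 and 7.80 with GC-1, 7.96, 7.90 and 8.11 with T3, and 6.84, 6.67 and 6.79 with vehicle. Its differences were smaller, 1.05 ± 0.07 for GC-1 and 1.22 ± 0.07 for T3, and the highest GC-1 array lay just under the lowest T3 array. Over the processing alternatives, the GC-1 difference of any of the 3 sets stayed between 0.995 and 1.37 and the T3 difference between 1.16 and 1.58, with T3 replicates 1 and 2 left out included. The sets share arrays and transcripts and are not independent measurements.

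**Figure D1:**
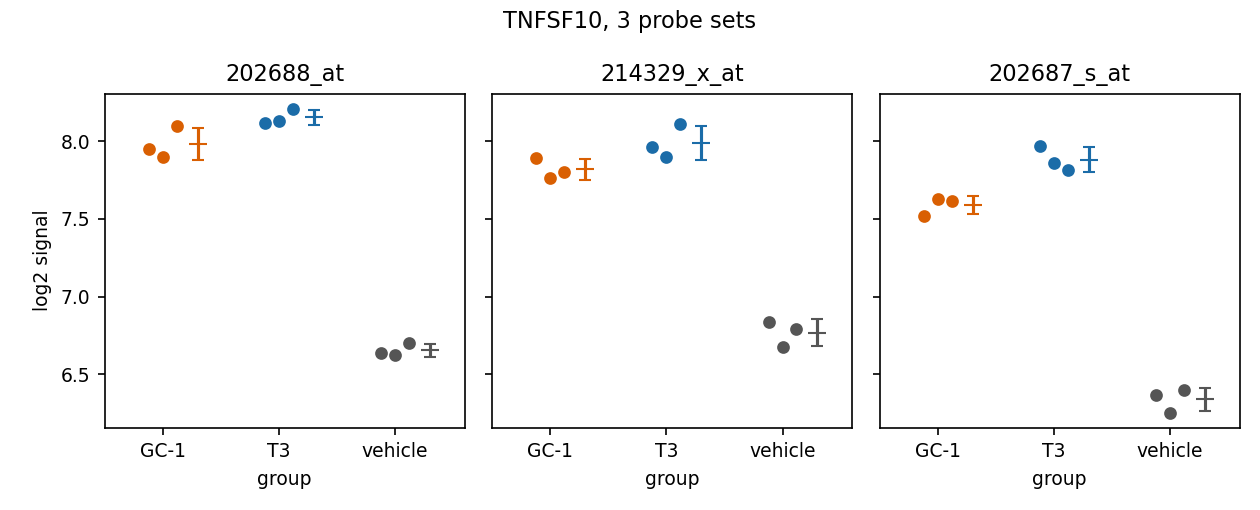
Log2 signal of TNFSF10 (vertical axis) on its 3 probe sets, with a point for each array in GC-1, T3 and vehicle cells and bars for the mean ± SD (n = 3). Ligand arrays lie between 7.52 and 8.21 and vehicle arrays between 6.25 and 6.84, and in each panel the GC-1 arrays lie below the T3 arrays.

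TNFRSF10B, the receptor with a full death domain among the 10 members, did not pass the test with either ligand. Its brightest probe set, 209295_at, had 10.49, 10.49 and 10.44 in GC-1 cells, 10.70, 10.55 and 10.57 in T3 cells, and 10.46, 10.41 and 10.46 in vehicle cells. The T3 arrays lay above all others on this set, while GC-1 and vehicle overlapped. The difference was 0.03 ± 0.05 (SE) with GC-1 (adjusted p = 0.876, limma) and 0.16 ± 0.05 with T3 (adjusted p = 0.116), where the 95% interval ran from 0.04 to 0.28. The T3 difference passed with the trend and robust options of eBayes (adjusted p = 0.0262). Over the alternatives, it ranged from 0.02, with the mean of the 3 probe sets, to 0.19. The other probe sets of the gene, 209294_x_at and 210405_x_at, pointed the other way with T3, at -0.03 and -0.08, and all 3 groups overlapped on both.

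The decoy receptors were dim, with means in the lowest 40% of probe sets, where signals of this kind are compressed and a gene cannot be called absent. TNFRSF10C had 5.46, 5.37 and 5.51 with GC-1, 5.39, 5.16 and 5.43 with T3, and 5.27, 5.54 and 5.35 with vehicle on 206222_at. The groups overlapped, and its second probe set, 211163_s_at, differed from vehicle by 0.02 ± 0.10 with GC-1 and 0.14 ± 0.10 with T3. The T3 arrays of that second set were spread widely, at 5.51, 5.21 and 5.69, and the set was called when only the last of these was kept (log2 0.36, adjusted p = 0.0210, with the spread of the remaining groups used for that single array).

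TNFRSF10D, the decoy with the truncated death domain, had 6.05, 5.94 and 5.98 with GC-1, 5.87, 6.05 and 5.93 with T3, and 5.88, 6.19 and 5.80 with vehicle. Vehicle arrays spread over a wider range than either ligand group, and the differences were 0.03 ± 0.09 for GC-1 and -0.01 ± 0.09 for T3. TNFRSF11B had 5.03, 4.87 and 4.96 with GC-1, 5.06, 4.90 and 5.01 with T3, and 4.90, 4.98 and 4.99 with vehicle on 204933_s_at. Its second set, 204932_at, lay between 4.09 and 4.36 on all 9 arrays. All groups overlapped on both sets, with differences between -0.04 and 0.04. TNFRSF10B, TNFRSF10C and TNFRSF10D are neighbours in the RefSeq gene order with no other protein-coding gene between them, and none of their probe sets was called with either ligand.

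FADD, the adaptor, had 8.19, 8.11 and 8.22 in GC-1 cells, 8.31, 8.34 and 8.18 in T3 cells, and 8.28, 8.27 and 8.29 in vehicle cells. The vehicle arrays were almost identical, all 3 GC-1 arrays lay below them, and the T3 arrays fell on both sides. The GC-1 difference of -0.11 ± 0.06 did not pass (adjusted p = 0.401), nor did the T3 difference of -0.01 ± 0.06 (adjusted p = 0.971).

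The initiator caspases were not called with either ligand. CASP8, the first to be cleaved at the receptor, had 9.60, 9.65 and 9.55 with GC-1, 9.63, 9.58 and 9.69 with T3, and 9.65, 9.60 and 9.60 with vehicle on 213373_s_at. The groups overlapped, with 95% intervals of the difference from -0.13 to 0.10 for GC-1 and from -0.09 to 0.13 for T3. Its second probe set, 207686_s_at, differed by 0.04 ± 0.08 and 0.03 ± 0.08 from vehicle with GC-1 and with T3. CASP10, the close relative of CASP8, had 8.10, 8.12 and 8.17 with GC-1, 8.14, 8.19 and 8.04 with T3, and 8.15, 8.13 and 7.96 with vehicle on 205467_at. Vehicle replicate 3 was the lowest array there and the groups overlapped. The differences of its 4 probe sets lay between -0.05 and 0.08 for GC-1 and between 0.02 and 0.06 for T3. CFLAR, CASP10 and CASP8 stand side by side in the gene order.

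**Figure D2:**
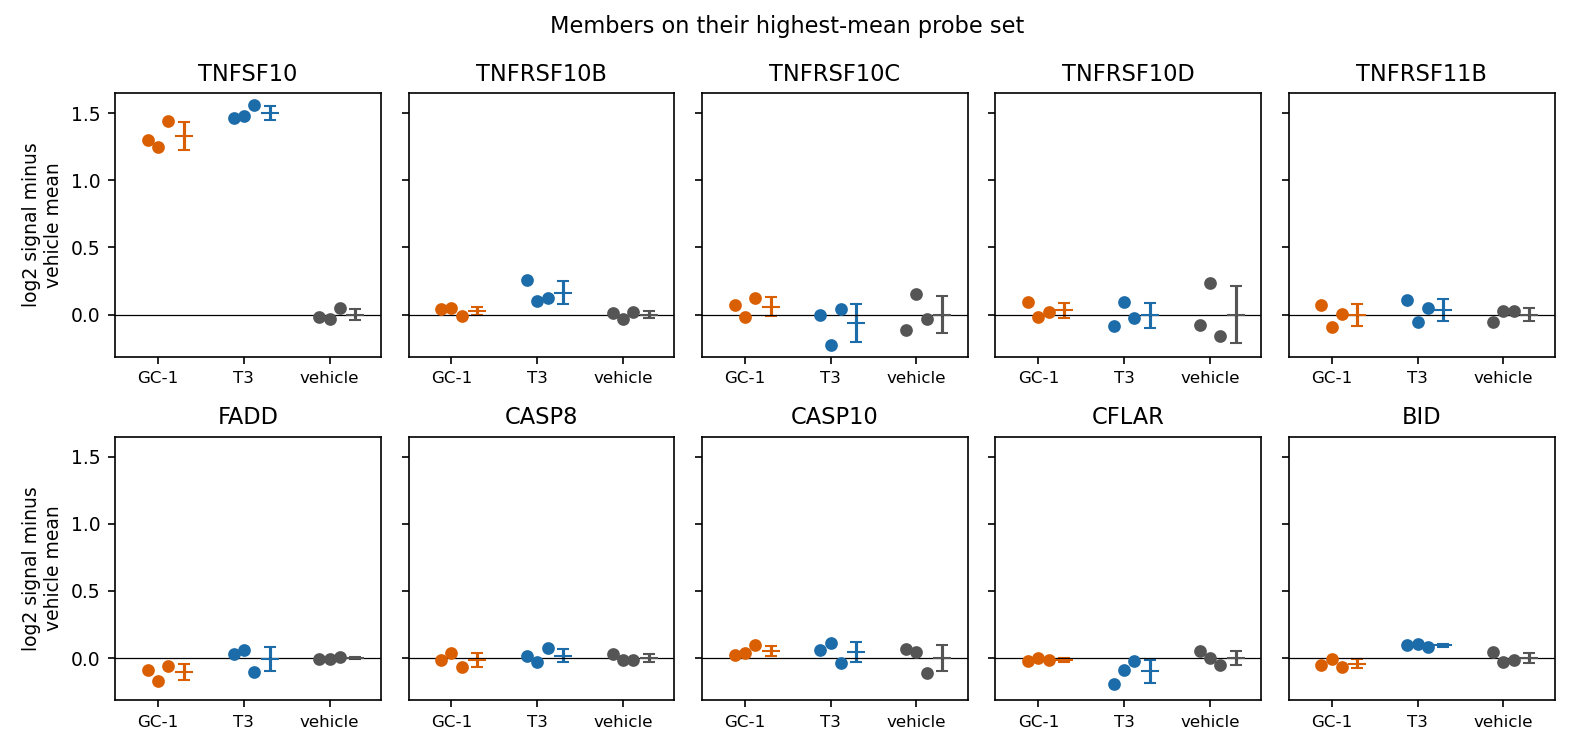
Log2 signal minus the vehicle mean (vertical axis) for each of the 10 members on its probe set with the highest mean, with a point for each array in GC-1, T3 and vehicle cells and bars for the mean ± SD (n = 3). TNFSF10 stands 2.51-fold (GC-1) and 2.83-fold (T3) above vehicle, and the means of the other 9 members lie between -0.11 and 0.16.

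CFLAR was covered by 11 probe sets, 8 of them of the type that can bind several transcripts, and none was called with either ligand. The brightest, 209939_x_at, had 10.14, 10.17 and 10.15 with GC-1, 9.98, 10.08 and 10.15 with T3, and 10.22, 10.17 and 10.12 with vehicle. GC-1 arrays fell inside the vehicle range and 2 of the T3 arrays below it, and the differences were -0.01 ± 0.06 for GC-1 and -0.10 ± 0.06 for T3 (adjusted p = 0.342). The other sets mostly pointed up. On 211316_x_at the signal was 7.96, 7.81 and 7.87 with GC-1, 7.97, 7.76 and 8.06 with T3, and 7.55, 7.72 and 7.75 with vehicle, so that both ligand groups lay above vehicle. Its differences were 0.21 ± 0.08 for GC-1 (adjusted p = 0.245) and 0.26 ± 0.08 for T3 (adjusted p = 0.100). The largest GC-1 difference of the gene was on 211317_s_at, 0.34 ± 0.11 (adjusted p = 0.142), with a 95% interval from 0.10 to 0.57. The median over the 11 sets was 0.10 for GC-1, where 10 pointed up, and 0.11 for T3, where 8 did.

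A single vehicle array bore on the size of these CFLAR differences. Vehicle replicate 1 had the lowest signal of all 9 arrays on 7 of the 11 sets, for example 6.75 on 208485_x_at against 7.33 and 7.09 on the other vehicle arrays. Over all probe sets that array was the lowest in 9.5%. The 11 sets share arrays and transcripts, so the 7 are not independent counts to weigh against that share. Averaged over the 11 sets, the signal was 7.59, 7.51 and 7.57 with GC-1, 7.55, 7.52 and 7.55 with T3, and 7.31, 7.51 and 7.48 with vehicle. Without vehicle replicate 1 the median difference was 0.04 for GC-1 and 0.05 for T3, and the largest was 0.21 and 0.20. In that fit 10 of the 11 sets still pointed up for GC-1 and 8 for T3, the same counts as with all arrays. The 211316_x_at set was called for T3 with the trend and robust options (adjusted p = 0.0395), without T3 replicate 2 (log2 0.35, adjusted p = 0.0292) and without T3 replicates 1 and 2 (log2 0.39, adjusted p = 0.0402), while without vehicle replicate 1 it was not (log2 0.20, adjusted p = 0.292). The 211317_s_at set was called for GC-1 with the trend and robust options (adjusted p = 0.0458).

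BID, the link to mitochondria, was near vehicle with both ligands. On 211725_s_at it had 8.67, 8.72 and 8.66 with GC-1, 8.82, 8.83 and 8.81 with T3, and 8.77, 8.70 and 8.71 with vehicle. The T3 arrays were tightly grouped above the other 6, and GC-1 overlapped vehicle. The differences were -0.04 ± 0.05 for GC-1 (adjusted p = 0.744) and 0.09 ± 0.05 for T3 (adjusted p = 0.275). On 204493_at, where T3 arrays spread from 7.54 to 7.94, the differences were -0.10 ± 0.09 for GC-1 and -0.02 ± 0.09 for T3.

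**Figure D3:**
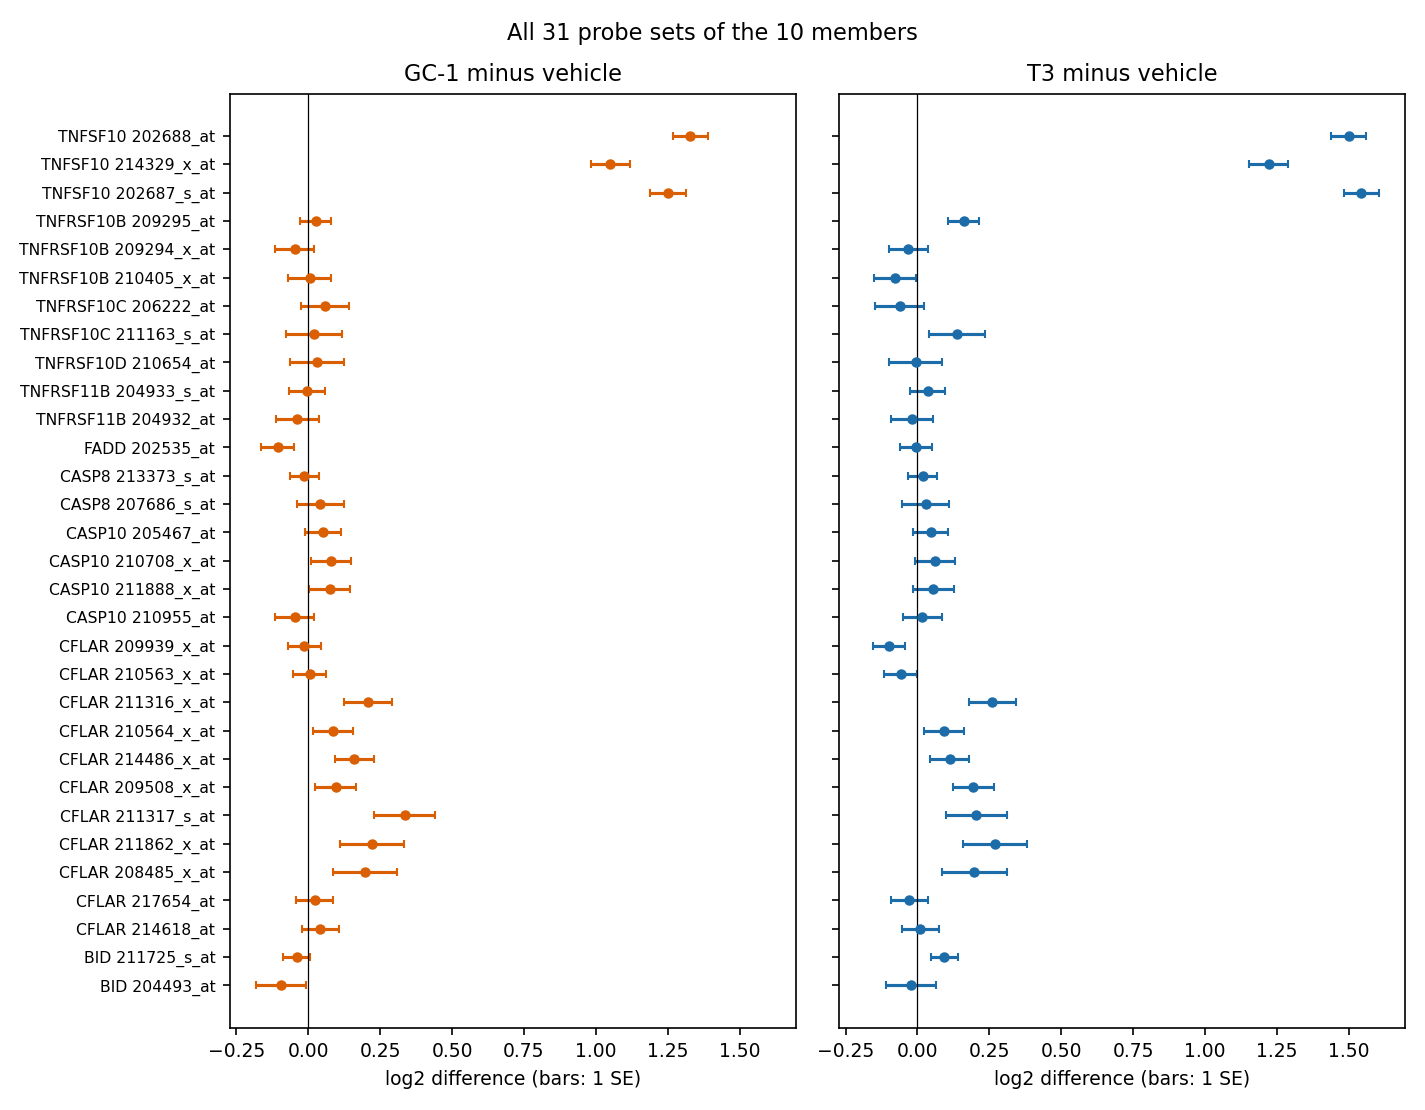
Log2 difference from vehicle (horizontal axis) for all 31 probe sets of the 10 members, GC-1 in the left panel and T3 in the right, with bars of 1 SE. The 3 TNFSF10 sets lie between 1.05 and 1.54, and the 28 others between -0.11 and 0.34.

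Counted together, the 28 probe sets of the 9 members other than TNFSF10 held 0 calls with GC-1 and 0 with T3 in limma. Of all probe sets, 2.80% were called with GC-1 (1.81% higher and 0.986% lower) and 5.50% with T3 (4.00% higher and 1.50% lower). At an unadjusted p under 0.05 there were 3 of the 28 with GC-1 and 4 with T3, where 15.9% and 21.1% of all probe sets reached it. The trend and robust options called 1 and 2 of the 28, and array weights 0 and 0. The 3 arrays of a ligand lay wholly on one side of vehicle in 3 of the 28 for GC-1, 2 higher and 1 lower, and in 5 for T3, all higher, against 26.5% (10.8% higher, 15.6% lower) and 24.9% (12.5% higher, 12.4% lower) of all probe sets. Every unadjusted 95% interval of these 28 sets lay within 1.5-fold, the widest bound being 1.48-fold for GC-1 and 1.43-fold for T3, both in CFLAR. The median difference was 0.03 for each ligand, beside 0.00 for GC-1 and -0.02 for T3 over all probe sets. The 3 TNFSF10 sets were past the threshold in both comparisons and under every one of the 17 alternative fits, from which nothing is read because the gene was chosen on these values. The filter on dim signals kept 23 of the 31 sets, for 7 genes.

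The ligands were compared directly at the matched dose and time. TNFSF10 was lower with GC-1 than with T3 on all 3 probe sets, by a margin that limma did not call over the whole array. The difference was -0.17 on 202688_at (95% interval -0.30 to -0.04, adjusted p = 0.268), -0.17 on 214329_x_at (interval -0.32 to -0.02, adjusted p = 0.314) and -0.29 on 202687_s_at (interval -0.43 to -0.16, adjusted p = 0.176). On each set the 3 GC-1 arrays lay below the 3 T3 arrays, where 10.1% of all probe sets have that pattern. The two-sided exact permutation test gave p = 0.10 on each, the smallest that 3 against 3 arrays allow. Without T3 replicate 3 the difference on 202687_s_at was -0.33 and was called (adjusted p = 0.0468), and over the alternatives its adjusted p reached 0.459. As a share of the T3 difference from vehicle, the GC-1 difference was 88.6%, 86.0% and 81.0% on the log2 scale.

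No other member was called between the ligands. Among all 31 sets, limma called 0 and 5 had an unadjusted p under 0.05, where 0% and 14.1% of all probe sets did. The trend and robust options and array weights also called 0 of the 31. The 5 were the TNFSF10 sets, 209295_at of TNFRSF10B (-0.14, 95% interval -0.25 to -0.02, adjusted p = 0.312) and 211725_s_at of BID (-0.13, interval -0.24 to -0.03, adjusted p = 0.261). On each of these 5 the GC-1 arrays lay below the T3 arrays. The 28 sets other than TNFSF10 had differences between -0.14 and 0.13, with no interval bound beyond 1.29-fold. Missing the threshold is no evidence of equal action. The intervals are unadjusted and rest on the spread between these arrays, which may be technical, and dim signals are compressed. They describe array signal and set no limit on differences in RNA.

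**Figure D4:**
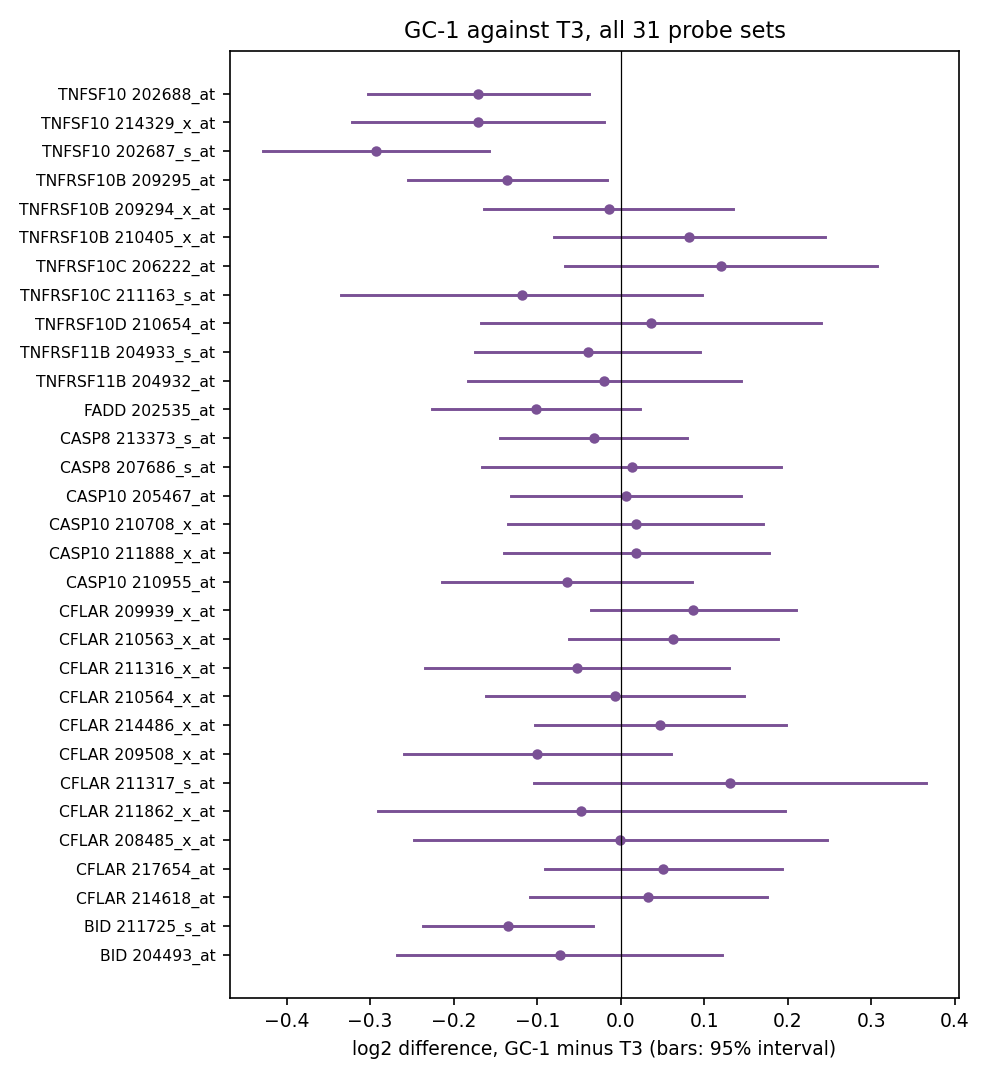
Log2 difference of GC-1 minus T3 (horizontal axis) with its unadjusted 95% interval for all 31 probe sets of the members. The TNFSF10 sets at -0.17, -0.17 and -0.29, 1 set of TNFRSF10B at -0.14 and 1 of BID at -0.13 have intervals that do not reach 0.

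Genes around TRAIL signalling were taken from 8 lists, each gene on its probe set with the highest mean. Of 129 measured genes, 10 were called higher and 5 lower with GC-1, and 15 higher and 4 lower with T3, while over all 11963 genes 3.26% were called with GC-1 (2.10% higher, 1.16% lower) and 6.22% with T3 (4.51% higher, 1.71% lower). The median differences of the 129 were 0.00 and 0.00, beside -0.01 for GC-1 and -0.02 for T3 over all genes. The lists were drawn up with earlier results of these data known, so no enrichment is read from these counts. The share of dim genes also differed, from 0% in the p53 list to 50% in the NF-kB list. By definition 40% of all probe sets were dim. That is no like baseline, because the list shares are over genes on their highest-mean probe set. Most of the calls in the lists were lost when some single array was left out. Calls over all probe sets moved too, from 622 to between 274 and 1272 for GC-1. For T3 they moved from 1222 to between 661 and 1356, so such losses were not particular to these genes. Of the 15 GC-1 calls, 2 were made whichever array was left out, G6PC1 and PCK1. Of the 19 T3 calls, 7 were, TNFRSF1A, GADD45B, NFKBIA, G6PC1, PCK1, FOXO1 and CITED2. Leaving out 1 array moved the counts to between 3 and 21 for GC-1 and between 8 and 20 for T3, and T3 arrays count in the GC-1 fit through the shared spread.

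Of 20 other death ligands, receptors and adaptors of the family, 1 rose and 1 fell with GC-1 (median 0.01), and 2 rose and 1 fell with T3 (median -0.07). Over the 17 alternative fits, 0 to 2 of the 20 were called with GC-1 and 1 to 6 with T3, the 6 with the interquartile range as covariate and also without T3 replicates 1 and 2. TNFRSF1A, the main receptor of tumour necrosis factor, rose by 0.27 ± 0.06 with GC-1 (adjusted p = 0.0408) and by 0.42 ± 0.06 with T3 (adjusted p = 0.00214). Its signal was 8.90, 8.94 and 8.89 with GC-1, 9.16, 9.08 and 8.95 with T3, and 8.61, 8.71 and 8.60 with vehicle, with ligand arrays above vehicle throughout. The GC-1 call was lost when any vehicle or GC-1 array or T3 replicate 2 was left out (adjusted p up to 0.161). FAIM, an inhibitor of FAS killing, fell by 0.28 with GC-1 (adjusted p = 0.00998) and by 0.24 with T3 (adjusted p = 0.0139). Both FAIM calls were lost without vehicle replicate 1 or 2, and that of GC-1 also without GC-1 replicate 1 (adjusted p up to 0.0670). LTBR, the lymphotoxin receptor, rose with T3 (0.22, adjusted p = 0.0363) and had 0.07 with GC-1 (adjusted p = 0.569), and the T3 call was lost in 7 of 9 fits that left out an array. FAS, a death receptor that also acts through FADD, had -0.17 with GC-1 (adjusted p = 0.280) and -0.21 with T3 (adjusted p = 0.135).

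Downstream of the receptor, 0 of 14 caspase and execution genes were called with GC-1 and 1 with T3, ENDOG, a mitochondrial nuclease (0.08 with GC-1 and 0.26 with T3, adjusted p = 0.562 and 0.0297). The ENDOG call was lost in 5 of 9 fits that left out an array (adjusted p up to 0.113). At an unadjusted p under 0.05 there were 2 of the 14 with GC-1 and 4 with T3, beside 15.9% and 21.1% of all probe sets. The alternatives called 0 with GC-1 and 0 to 2 with T3. CASP6, an executioner, had -0.18 with GC-1 and -0.14 with T3 (adjusted p = 0.230 and 0.284). Of 6 genes listed as inhibitors of apoptosis, limma called 0 with either ligand, and 1 with GC-1 and 0 with T3 had an unadjusted p under 0.05. The alternatives called 0 to 1 of the 6 with each ligand. The 1 appeared for GC-1 with the trend and robust options, with array weights and without T3 replicate 3, and for T3 with the interquartile range as covariate. TNFAIP8 had -0.245 with GC-1 (adjusted p = 0.141) and -0.13 with T3 (adjusted p = 0.362). BIRC5 had -0.08 and -0.02, and TNFAIP3 had -0.07 and -0.01. XIAP, a direct caspase inhibitor read on a dim probe set, had -0.07 with GC-1 and 0.04 with T3.

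Of 18 measured genes of the BCL2 family, which decides on the permeability of the outer mitochondrial membrane, 1 rose and 2 fell with GC-1 (median 0.05), and 2 rose and 2 fell with T3 (median 0.03). The alternatives called 0 to 5 of the 18 with GC-1 and 0 to 6 with T3. The 2 that fell with both ligands promote cell death. BIK had 7.407, 7.596 and 7.582 with GC-1, 7.43, 7.61 and 7.51 with T3, and 7.89, 7.81 and 7.97 with vehicle, a fall of 0.36 ± 0.07 with GC-1 (adjusted p = 0.0203) and of 0.37 ± 0.07 with T3 (adjusted p = 0.0100). PMAIP1 (NOXA), on a dim probe set, fell by 0.41 ± 0.09 with GC-1 (adjusted p = 0.0309) and by 0.39 ± 0.09 with T3 (adjusted p = 0.0276). Ligand arrays lay below vehicle in both genes. The protector BCL2L1 rose with GC-1 (0.24, adjusted p = 0.0309) and had 0.18 with T3 (adjusted p = 0.0615), while BNIP3L and BNIP3, receptors for removal of mitochondria, rose by 0.28 and 0.23 with T3 (adjusted p = 0.0303 and 0.0456) and had 0.26 and 0.21 with GC-1. Each of these calls was lost without 1 or more single arrays. For BIK with T3 that was vehicle replicate 3 (adjusted p = 0.0532), and for BIK with GC-1 vehicle replicates 1 and 3 and GC-1 replicates 1 and 3. For PMAIP1 and BNIP3L with T3 it was any vehicle array and T3 replicates 1 and 3, and for PMAIP1 and BCL2L1 with GC-1 any vehicle or GC-1 array. BNIP3 stayed called in 1 of 9 such fits.

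**Figure D5:**
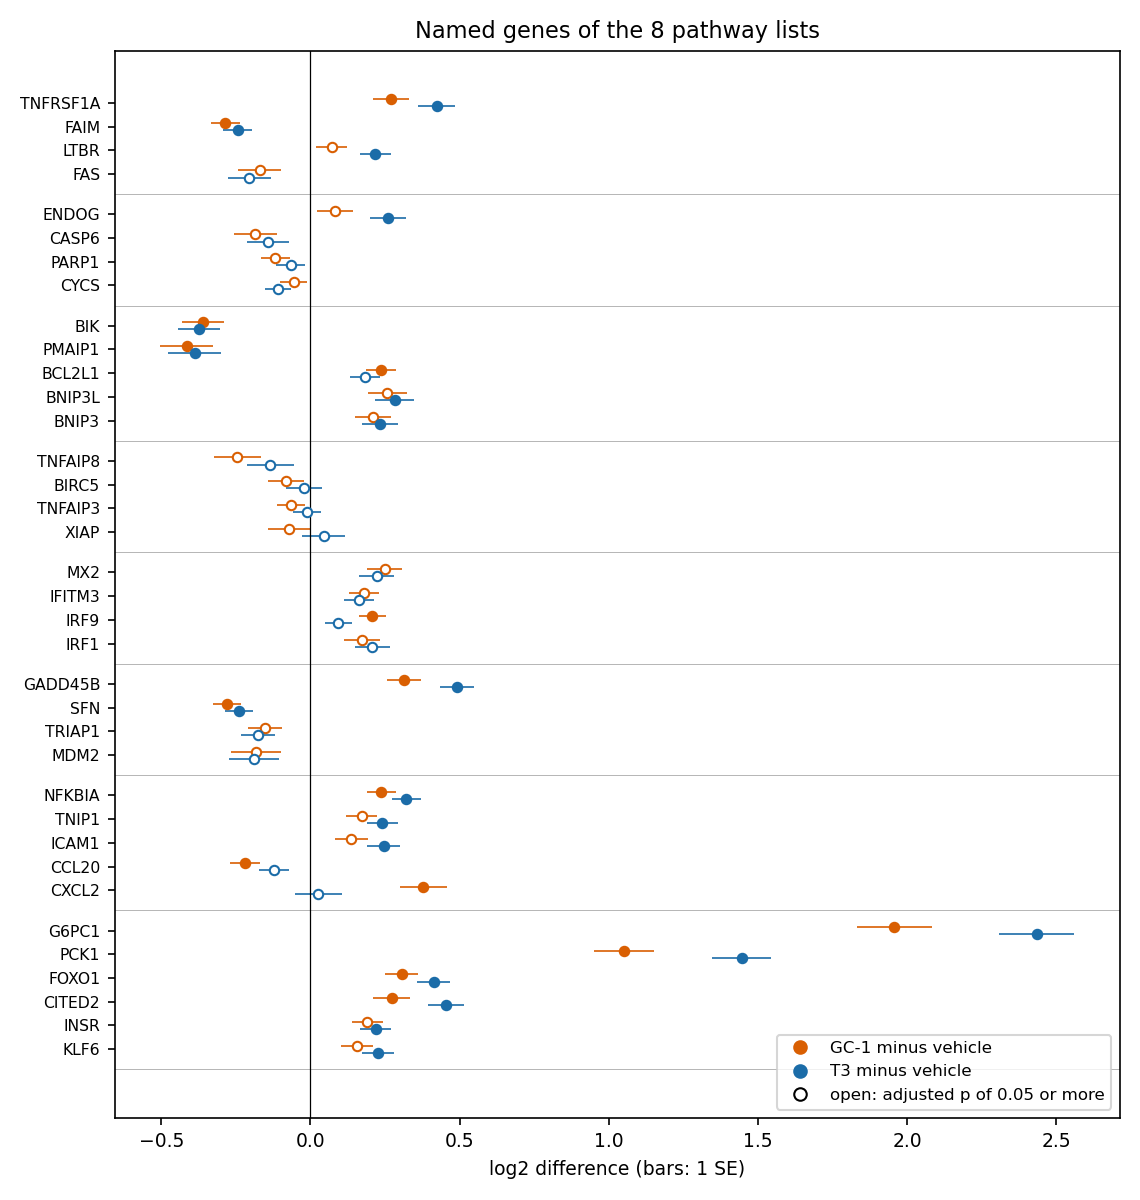
Log2 difference from vehicle (horizontal axis) with bars of 1 SE for the named genes of the 8 pathway lists, GC-1 above T3 in each row, filled where the adjusted p was under 0.05. G6PC1 and PCK1 in the FOXO list stand beyond 1, and the genes of the other 7 lists lie between -0.41 and 0.49.

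TNFSF10 is known as a target of interferon, of p53, of NF-kB and of FOXO factors, and lists of each were read beside it. Of 26 interferon-stimulated genes, 1 was called with GC-1, IRF9 (0.21, adjusted p = 0.0350), and 0 with T3, with medians of 0.01 and -0.03. At an unadjusted p under 0.05 there were 5 and 7 of the 26, beside 15.9% and 21.1% of all probe sets. The alternatives called 0 to 3 with GC-1 and 0 to 4 with T3. The trend and robust options called 3 and 2, array weights 3 and 2, and the filter on dim signals 3 and 4. The IRF9 call was lost without any vehicle or GC-1 array or T3 replicate 2 (adjusted p up to 0.154). MX2, an antiviral protein, had 0.25 with GC-1 and 0.22 with T3 (adjusted p = 0.0522 and 0.0551). Of 13 genes listed as p53 targets, 1 rose and 1 fell with each ligand. PMAIP1, which fell with both, was counted in the BCL2 list only. The alternatives called 0 to 2 with GC-1 and 1 to 5 with T3, the 5 with the interquartile range as covariate and also without T3 replicates 1 and 2, and the trend and robust options called 4 with T3. GADD45B, a stress gene also driven by NF-kB, rose by 0.31 with GC-1 (adjusted p = 0.0135) and 0.49 with T3 (adjusted p = 0.000433), and SFN, a 14-3-3 protein, fell by 0.28 and 0.24 (adjusted p = 0.00940 and 0.0132). MDM2, the p53 antagonist, had -0.18 and -0.19 (adjusted p = 0.321 and 0.227). The GC-1 call of GADD45B was lost without vehicle replicate 3 or GC-1 replicates 2 or 3, and the calls of SFN without vehicle replicate 2 and, for T3, vehicle replicate 1 or, for GC-1, GC-1 replicates 1 or 3.

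Of 16 NF-kB genes, 2 rose and 1 fell with GC-1 and 3 rose with T3. The alternatives called 0 to 4 with GC-1 and 1 to 4 with T3. NFKBIA, the inhibitor that NF-kB induces, had 10.53, 10.48 and 10.43 with GC-1, 10.59, 10.53 and 10.56 with T3, and 10.26, 10.25 and 10.21 with vehicle. It rose by 0.24 ± 0.05 with GC-1 (adjusted p = 0.0264) and by 0.32 ± 0.05 with T3 (adjusted p = 0.00285), and the GC-1 call was lost without any vehicle or GC-1 array (adjusted p up to 0.118). The other calls with GC-1 were the chemokines CXCL2 (0.38) and CCL20 (-0.22). With T3 they were TNIP1, which dampens NF-kB (0.24), and the adhesion molecule ICAM1 (0.25). Each of these calls was lost without 1 or more arrays, 8 of the 9 for CCL20. CXCL2 was read on a dim probe set of the type that can bind several transcripts. Its signal was 4.78 to 4.82 with GC-1, 4.32 to 4.65 with T3 and 4.35 to 4.47 with vehicle. The T3 difference of CXCL2 was 0.03 (adjusted p = 0.886).

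Of 16 FOXO factors and target genes, 4 rose with GC-1 (median 0.12) and 6 with T3 (median 0.19), and none was called lower. The alternatives called 2 to 7 with GC-1 and 4 to 9 with T3. FOXO1 had 8.18, 8.15 and 8.21 with GC-1, 8.29, 8.33 and 8.25 with T3, and 7.97, 7.81 and 7.85 with vehicle. It rose by 0.31 ± 0.05 with GC-1 (adjusted p = 0.0130) and by 0.41 ± 0.05 with T3 (adjusted p = 0.00119), and CITED2, a transcriptional coregulator, by 0.27 (adjusted p = 0.0410) and 0.45 (adjusted p = 0.00141). The GC-1 call of FOXO1 was lost without vehicle replicates 2 or 3 or GC-1 replicates 1 or 3 (adjusted p up to 0.0690), and that of CITED2 in 7 of 9 such fits. G6PC1 and PCK1, enzymes of glucose production that are also known thyroid hormone targets, rose most, by 1.96 and 1.05 with GC-1 (adjusted p = 1.02e-05 and 0.000161) and by 2.43 and 1.45 with T3 (adjusted p = 1.22e-06 and 1.09e-05). INSR, the insulin receptor, and KLF6, a transcription factor, had 0.19 and 0.16 with GC-1 and rose by 0.22 and 0.23 with T3, calls that were each lost in 6 of 9 such fits, and neither was called between the ligands. Whether FOXO activity bears on TNFSF10 was not tested.

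TRAIL is made by natural killer and T cells. HepG2 is a single line, so their markers describe signal in these arrays and not a mixture of cells. Of 13 measured, 2 were called higher with GC-1 and 1 with T3, beside 2.10% and 4.51% of all 11963 genes. CD7 was called with both ligands (0.35 and 0.39) and NCAM1 with GC-1 (0.23), and 8 of the 13 were dim. The mean of the list was 6.39 to 6.40 on GC-1 arrays, 6.21 to 6.33 on T3 arrays and 6.28 to 6.32 on vehicle arrays, so that all 3 GC-1 arrays lay above every T3 and vehicle array, while T3 and vehicle overlapped. The median difference of the 13 was 0.09 with GC-1 and -0.07 with T3, and 4 and 3 of them had an unadjusted p under 0.05. Of all probe sets, 15.9% and 21.1% had one. The NCAM1 call was lost in 8 of 9 fits that left out an array, and the GC-1 call of CD7 in 4. CD7 was read on a probe set of the type that can bind several transcripts. PTPRC, the general leukocyte marker, had 0.16 with GC-1 (adjusted p = 0.129) and 0.01 with T3 (adjusted p = 0.926). GNLY, also on this list, lay below vehicle, at -0.05 with GC-1 (adjusted p = 0.732) and -0.17 with T3 (adjusted p = 0.118). Of 6 monocyte and macrophage markers and 10 fibroblast and endothelial markers, limma called 0 with either ligand. At an unadjusted p under 0.05 there were 1 and 0 monocyte and macrophage markers with GC-1 and with T3, and 0 and 2 of the fibroblast and endothelial ones, and array weights called 1 of the 10 with T3. The hepatocyte markers averaged 13.7 on GC-1 arrays, 13.7 to 13.8 on T3 arrays and 13.6 on vehicle arrays, with FGB, a fibrinogen chain, called with both ligands (0.65 and 0.69) and APOB with T3 (0.21). The APOB call was lost in 8 of 9 fits that left out an array (adjusted p up to 0.162) and in 5 of 8 other alternatives. The alternatives called 1 to 3 of the 9 hepatocyte markers with GC-1 and 1 to 6 with T3, the highest counts with the trend and robust options. The probe sets of these genes cannot be called absent, and the part of these markers in the result was not tested.

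By likeness over the 9 arrays, TNFSF10 on 202688_at went most closely with CPT1A, ANGPTL8, SGK1, SCNN1A and HSD17B2, at Pearson correlations of 0.99 for each of them. They come from 31 genes, members aside, whose signal ranged over at least 1 log2 unit. CPT1A admits fatty acids to mitochondria, ANGPTL8 is a secreted regulator of lipoprotein lipase, SGK1 is a kinase, SCNN1A is a sodium channel subunit and HSD17B2 inactivates sex steroids. Since all points are the same 9 arrays in 3 groups, such values mainly state that ligand arrays stood above vehicle arrays, and no p is given. As a description with no test, GC-1 minus T3 was -0.31 for ANGPTL8, -0.23 for CPT1A, -0.13 for HSD17B2, -0.11 for SCNN1A and 0.01 for SGK1, beside -0.17 for TNFSF10 on 202688_at.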

How the data were processed

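HepG2 arrays of GC-1, T3 and vehicle cells (3 each) were grouped by their titles. The deposited values are log2 signals. The submitters' processing notes name RMA without a version, and the log base was inferred from the range of 3.15 to 14.5. They were used as deposited, after 62 array controls were left out. Scanner files were not used here. Symbols came from the platform annotation, which gives 1 symbol to 19064 probe sets, several to 1043 and none to 2108, and all 31 member probe sets matched RefSeq by Entrez identifier. A single model of the 3 group means was fitted with limma 3.58.1 (lmFit, then eBayes) under R 4.3.3, with Benjamini-Hochberg adjustment over 22215 probe sets and a threshold of 0.05. Tables were made in Python 3.11.15. On simulated data for T3 minus vehicle, over 22215 probe sets, this recovered 93 of 100 changes of 1.5-fold and 100 of 100 of 2-fold. The simulated noise was independent between probe sets and arrays, and changes were planted in T3 only. Recovery in the real arrays, for GC-1 and between the ligands was not tested. Alternatives were quantile normalization, no dim probe sets (mean under the 40th percentile), trend and robust eBayes, array weights, the interquartile range of the array as covariate, fits of 2 groups, the replicate number as a block, T3 replicates 1 and 2 left out, each array left out, and the mean over a gene's probe sets. The members, lists, motifs and alternatives were chosen with earlier results of these data known. Named list genes are the 4 with the smallest p in the mean of the ligands, and the others called. Same-numbered replicates had correlations of their deviations from -0.26 to 0.08 over 9 pairs. Differently numbered ones had -0.30 to 0.29 over 18 pairs. The numbers were therefore not used to pair the arrays. With deviations taken from means of 3 arrays, this check cannot exclude pairing.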

Additional observations from a re-analysis of the deposited data

How the results depend on the processing

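TNFSF10 kept its direction under each alternative. Its T3 difference was 1.56 with the interquartile range as covariate and also with T3 replicates 1 and 2 left out, and 1.42 as the mean of its 3 probe sets, where the GC-1 difference was 1.21. For T3, 5 member probe sets were called, 3 of TNFSF10 and 2 of other genes, with the trend and robust options and also with T3 replicates 1 and 2 left out, and 3 to 4 (0 to 1 not of TNFSF10) without single arrays. For GC-1, 1 probe set of a member other than TNFSF10 was called with the trend and robust options. Between the ligands, 0 to 1 member probe sets were called without single arrays, the 1 without T3 replicate 3.

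Calls over all probe sets moved widely. For GC-1 they were 1100 without dim probe sets, 1347 with the trend and robust options, 1435 with array weights, 1061 with only the groups compared and also with T3 replicates 1 and 2 left out, and 274 to 1272 without single arrays. For T3 they were 1957 with the trend and robust options, 2084 with the interquartile range as covariate, 753 with only the groups compared, and 661 to 1356 without single arrays. Between the ligands they were 22 with the trend and robust options and 0 to 338 without single arrays. List genes called were, for GC-1, 24 with the trend and robust options and with array weights, and 3 to 21 without single arrays. For T3 they were 30 without dim probe sets and with the trend and robust options, 11 with only the groups compared, and 8 to 20 without single arrays. Between the ligands they were 0 to 3, the 3 without T3 replicate 3. With the replicate number as a block, 347 probe sets and 8 list genes were called for GC-1 and 773 and 11 for T3. Whether that number pairs the arrays is not known. The cause of these moves was not tested.

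On the probe set with the highest mean of each gene or the mean over its probe sets, members other than TNFSF10 changed sign in 45 of 477 refitted differences. Of these 477, 1 was called, TNFRSF10B for T3 with the trend and robust options, and the other calls above were on further probe sets of CFLAR and TNFRSF10C. For GC-1 minus vehicle, the mean over probe sets gave -0.00533 for TNFRSF10B, 0.0137 for CASP8 and 0.124 for CFLAR, and quantile normalization gave 0.0047 for CASP8 and 0.0172 for CFLAR. For T3 minus vehicle, TNFRSF10C had 0.0107 with the interquartile range as covariate, 0.0407 with T3 replicates 1 and 2 left out and 0.0383 as the mean over probe sets. TNFRSF10D had 0.0297 with quantile normalization and 0.00668 with array weights, FADD 0.0251 with array weights, and CASP8 -0.0242 with quantile normalization. CFLAR had 0.105 as the mean over probe sets, and CASP10 had -0.0492 with the interquartile range and -0.0357 with T3 replicates 1 and 2 left out. For GC-1 minus T3, quantile normalization gave -0.0113 for TNFRSF10D and 0.0289 for CASP8, the interquartile range gave 0.0283 for FADD and -0.0309 for CFLAR, and CASP10 had -0.0161 with array weights and -0.00558 as the mean over probe sets.

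Without single arrays, the GC-1 difference ranged from -0.000333 to 0.135 for TNFRSF10C, -0.0502 to 0.149 for TNFRSF10D, -0.043 to 0.0385 for TNFRSF11B, -0.0398 to 0.0127 for CASP8, -0.00567 to 0.0858 for CASP10 and -0.0405 to 0.0135 for CFLAR. The T3 difference ranged from -0.12 to 0.0197 for TNFRSF10C, -0.0862 to 0.113 for TNFRSF10D, -0.0005 to 0.079 for TNFRSF11B, -0.0378 to 0.0447 for FADD, -0.00883 to 0.0417 for CASP8 and -0.0117 to 0.0863 for CASP10. GC-1 minus T3 ranged from -0.00467 to 0.0863 for TNFRSF10D, -0.0833 to 0.00317 for TNFRSF11B and -0.0347 to 0.0378 for CASP10.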
